A study of Bos taurus with 24 samples.

Results

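Transcript abundance of 39 genes of macrophages and monocytes was examined in subcutaneous adipose tissue of mature beef cows. The genes were chosen by name from what is known of these cells, and with earlier results of these data known. A gene was measured where the array held a transcript cluster annotated to that symbol alone. Of the 39 genes, 38 had such a cluster (1 cluster each) among the 24997 clusters tested, which carried 18444 gene symbols. The mannose receptor MRC1 had none and was not analysed here. By their best known roles, 8 of the measured genes were scavenger and resident receptors, 10 were lysosomal or lipid-handling genes, 10 were inflammatory or pattern recognition genes, 4 were Fc receptors or their adaptors, and 6 were lineage and growth factor genes.

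The 24 arrays came from 12 crossbred, non-pregnant cows, 5 years of age, of 121 in the feeding trial: the 6 with the highest (H1 to H6) and the 6 with the lowest (L1 to L6) body weight gain during ad libitum feeding. Each cow was biopsied on day 105 of a restricted ration of 120 kcal metabolizable energy per kg of metabolic body weight, which lasted 112 days, and again on day 49 of the ad libitum feeding that followed. The arrays thus form 4 groups of 6, high or low gain at restriction or at ad libitum feeding, and each cow is its own pair. All cows were restricted before they were fed freely, and the restriction sample was cut from the left side and the ad libitum sample from the right, so diet, order, side and day cannot be told apart. The RNA of the restriction samples also had, by the study's methods, a somewhat lower average integrity than that of the ad libitum samples, and its part in the diet changes was not tested. Gain was a property of the cow that was not assigned, the groups' breed make-up differed, and high gain cows also ate more.

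Adipose tissue macrophages clear dying adipocytes and the lipid they release, take up debris through scavenger receptors, break it down in lysosomes, and depend on growth factor signals through the receptor CSF1R. Resident macrophages are usually rich in scavenger receptors such as CD163, FOLR2, STAB1 and VSIG4. Macrophages that have taken up much lipid show GPNMB, TREM2 and cathepsins, and inflammatory ones show pattern recognition receptors, costimulatory molecules and the oxidase that makes superoxide.

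Values are log2 signals minus the median of the array, so that 0 is the middle of all clusters on that array. As deposited, the array medians lay from 8.26 to 8.34 at restriction and from 7.83 to 7.94 at ad libitum feeding, and without the centring the median cluster fell by 0.42 in high gain cows and by 0.43 in low gain cows. After centring, the brightest 5% of clusters still had a median diet change of 0.47 in high gain and 0.56 in low gain cows, and 50.5% and 54.8% of them were called higher, which bears on CTSB and CTSD, both among them. Signals of different clusters are not transcript levels and are not compared here. The adipocyte markers averaged 15.3 or more on each of the 24 arrays, so these markers of the labelled tissue were present throughout. The macrophage markers CD163 and CD68 gave mean signals of 9.70 and 10.8 over the 24 arrays. CD163 was lowest, below the array median, in L4 at restriction, and detection against background was not tested. The array of cow H5 at ad libitum feeding stood apart. The mean of the 38 genes there was 0.85 above their mean over all arrays, against -0.23 to 0.27 on the other 5 arrays of the group, and T and natural killer cell markers (0.34) and B and plasma cell markers (0.61) were also highest of the group on it. Adipocyte markers were lowest of the group on that array (-0.09, group median 0.30), and its deposited median (7.94) was the highest of the ad libitum arrays. Several results that rest on this array are given with and without it, and others only with it.

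**Figure D1:**
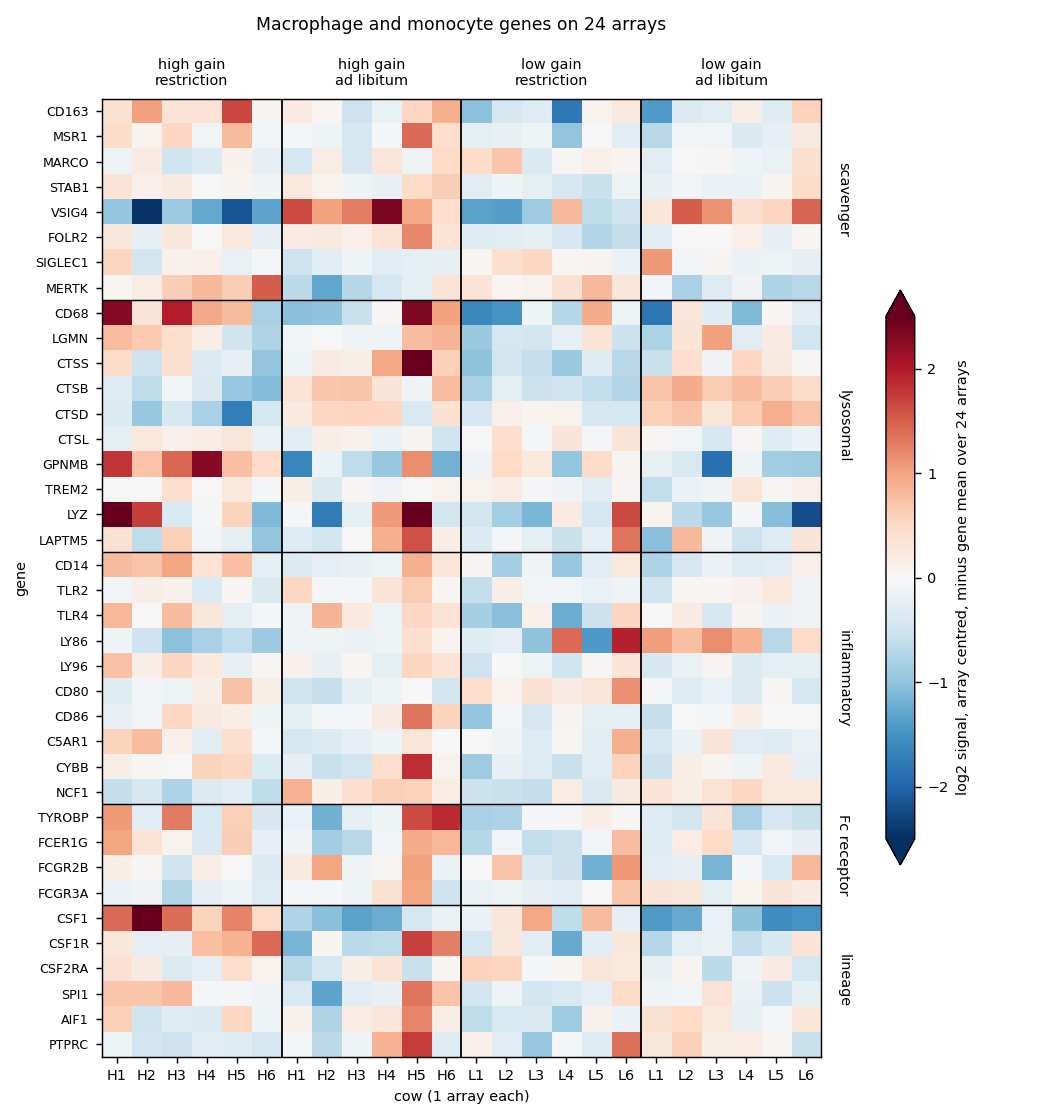
Log2 signal of the 38 genes (rows, by role) on the 24 arrays (columns, by group and cow), each array centred on its median and each gene on its mean over the arrays; red is higher, blue is lower, and colours end at the limits of the bar. VSIG4 is mostly blue at restriction and red at ad libitum feeding, CSF1 runs the other way, and the column of H5 at ad libitum feeding is red for most genes.

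The diet comparison asked how these genes changed from restriction to ad libitum feeding, within the same cows. The genes did not move as a block. In high gain cows 5 of 38 rose and 4 fell, in low gain cows 7 rose and 4 fell, and the median log2 changes were 0.00 and 0.08. VSIG4 and the cathepsins CTSB and CTSD rose and the growth factor CSF1 and the efferocytosis receptor MERTK fell in both groups of cows, while the general macrophage markers CD163, CD68, CD14 and CSF1R passed the test in neither. Without centring 3 of these 4 markers were called lower in high gain cows, CD163 (-0.89, adjusted p = 0.0138), CD14 (-0.92, adjusted p = 0.0121) and CSF1R (-0.80, adjusted p = 0.0443), and CSF1R also in low gain cows (-0.46, adjusted p = 0.0246). A change was called where the p from limma, with the cow as a block and adjusted over all clusters, was under 0.05. Of all clusters, 18.8% were called higher and 16.5% lower in high gain cows, and 18.6% and 13.1% in low gain cows, so the shares of the 38 genes called were close to or below those of the array. The tissue was profiled whole, so fewer cells of a type and less RNA per cell cannot be told apart.

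Among the genes called, 4 rose in both groups of cows (CTSB, CTSD, NCF1 and VSIG4) and 3 fell in both (CD80, CSF1 and MERTK). LY86 rose and GPNMB fell only past the threshold of high gain cows, and AIF1, CTSS and FOLR2 rose and CSF2RA fell only past that of low gain cows. No gene was called in opposite directions (0 of 13), and 25 were called in neither group. Without centring, 4 were higher and 13 lower in high gain cows and 2 and 16 in low gain cows. CTSL, TREM2, SIGLEC1, LY96, C5AR1 and CSF1R, called in neither group after centring, were then lower in both (adjusted p at most 0.0458). Of the calls, 6 in each group of cows held under the centred, the deposited and the quantile normalized values: VSIG4 and NCF1 higher and MERTK, GPNMB, CD80 and CSF1 lower in high gain cows, and VSIG4 and CTSB higher and MERTK, CD80, CSF1 and CSF2RA lower in low gain cows.

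**Figure D2:**
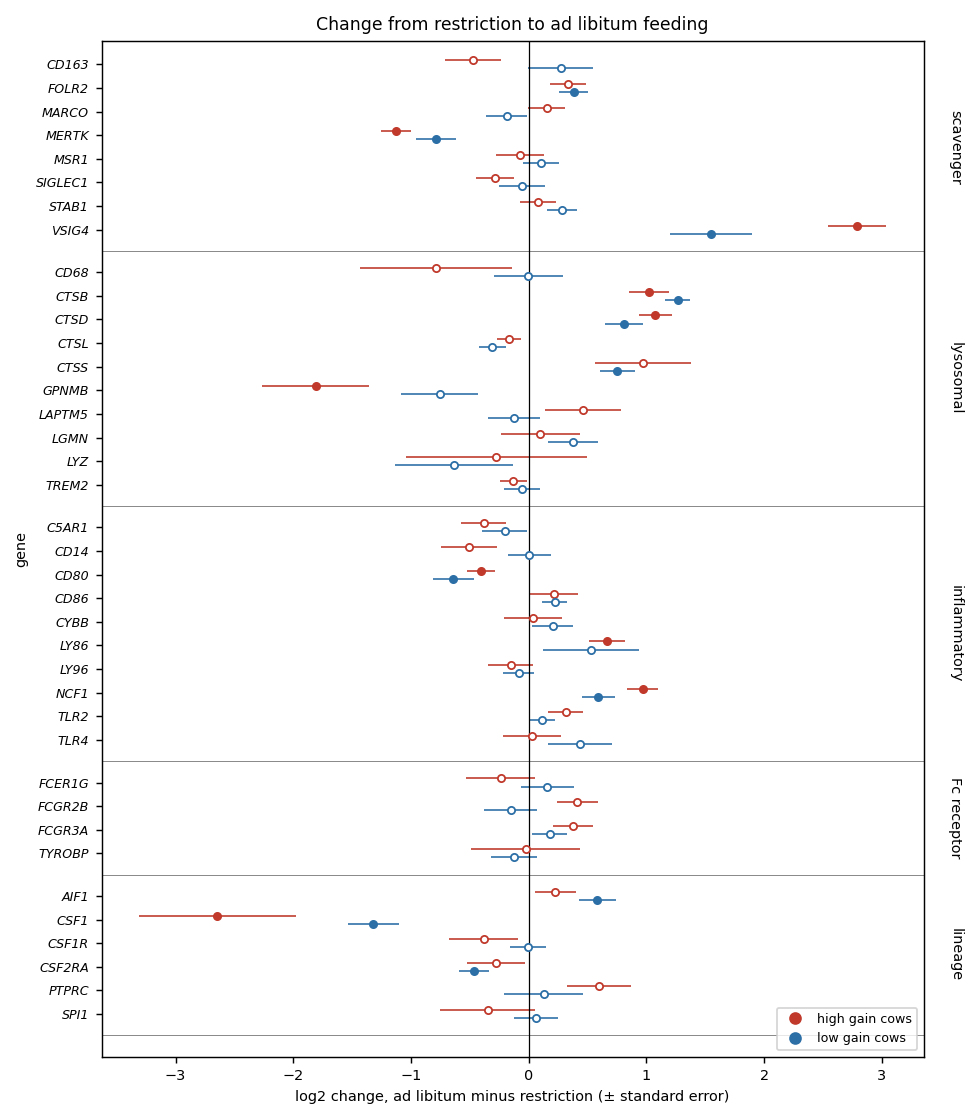
Log2 change from restriction to ad libitum feeding (horizontal axis) of each of the 38 genes by role, in high gain (red) and low gain (blue) cows; bars are standard errors from limma, n = 6 cows each, and filled points have an adjusted p under 0.05. VSIG4 lies farthest to the right and CSF1 farthest to the left in both groups.

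The scavenger and resident receptors held the gene with the largest rise and one with a clear fall. VSIG4 is a complement receptor of tissue-resident macrophages. Across high gain cows it ran from 1.99 to 3.53 (median 3.14) at restriction and from 4.87 to 6.80 (median 5.58) at ad libitum feeding, with no overlap and a rise in 6 of 6 cows. The change was 2.79 (standard error 0.25, adjusted p = 1.24e-04), and 2.72 (adjusted p = 8.46e-04) without H5. Across low gain cows VSIG4 ran from 3.07 to 5.26 (median 3.67) and from 4.75 to 5.96 (median 5.27). It was higher in 5 of 6 cows, all but L4, whose restriction value was the highest of its group. The change there was 1.55 (standard error 0.35, adjusted p = 0.00978), which an unmoderated test did not pass (adjusted p = 0.0681).

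MERTK, a receptor kinase through which macrophages engulf apoptotic cells, fell in every cow. Its values went from 0.70 to 2.17 (median 1.27) at restriction to -0.64 to 1.00 (median 0.12) at ad libitum feeding in high gain cows. Those of low gain cows went from 0.71 to 1.47 (median 0.95) to -0.17 to 0.58 (median 0.14), without overlap. It fell by 1.13 (standard error 0.13, adjusted p = 4.22e-04) in high gain and by 0.79 (standard error 0.17, adjusted p = 0.00854) in low gain cows. VSIG4 and MERTK, both receptors for clearance, went in opposite directions in every cow but L4, in which both were lower at ad libitum feeding.

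FOLR2, the folate receptor of resident macrophages, ran in low gain cows from 0.54 to 1.02 (median 0.91) at restriction and from 0.98 to 1.39 (median 1.28) at ad libitum feeding, and was higher in 6 of 6 cows. That change of 0.38 (standard error 0.12, adjusted p = 0.0383) lost its call when any of L2 to L6 was left out (adjusted p from 0.0677 to 0.105), and was -0.070 without centring. The high gain cows ran from 1.07 to 1.56 (median 1.41) and from 1.40 to 2.47 (median 1.55), where the top value is H5 (change 0.34, adjusted p = 0.122). The scavenger receptor STAB1 was between 0.29 and 0.73 (median 0.48) and between 0.21 and 1.01 (median 0.56) in high gain cows. The low gain cows were between -0.17 and 0.29 (median 0.12) and between 0.20 and 0.85 (median 0.27), with STAB1 up in 6 of 6 cows but not past the test (change 0.28, adjusted p = 0.115).

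CD163, the haemoglobin scavenger receptor used most widely to mark tissue macrophages, ran from 1.69 to 3.29 (median 1.99) at restriction and from 1.09 to 2.50 (median 1.75) at ad libitum feeding in high gain cows. It was lower in 5 of 6 of them, all but H6 (change -0.48, standard error 0.24, adjusted p = 0.152), and without H6 the change was -0.73 and passed (adjusted p = 0.0146). Low gain cows ran from -0.17 to 1.87 (median 1.25) and from 0.20 to 2.19 (median 1.33), higher in 4 of 6 (change 0.27, standard error 0.28, adjusted p = 0.488). That value rests on L4, which rose by 1.95, and was -0.066 (adjusted p = 0.762) without it. The scavenger receptors MSR1 and MARCO and the sialic acid receptor SIGLEC1 had changes from -0.29 to 0.15 in both groups, with adjusted p of 0.187 or more. Without centring MARCO was called lower in low gain cows (-0.64, adjusted p = 0.0120) and SIGLEC1 in both groups, as given above. After centring, 1 of 8 genes of this role rose and 1 fell in high gain cows (median 0.00), and 2 rose and 1 fell in low gain cows (median 0.19).

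**Figure D3:**
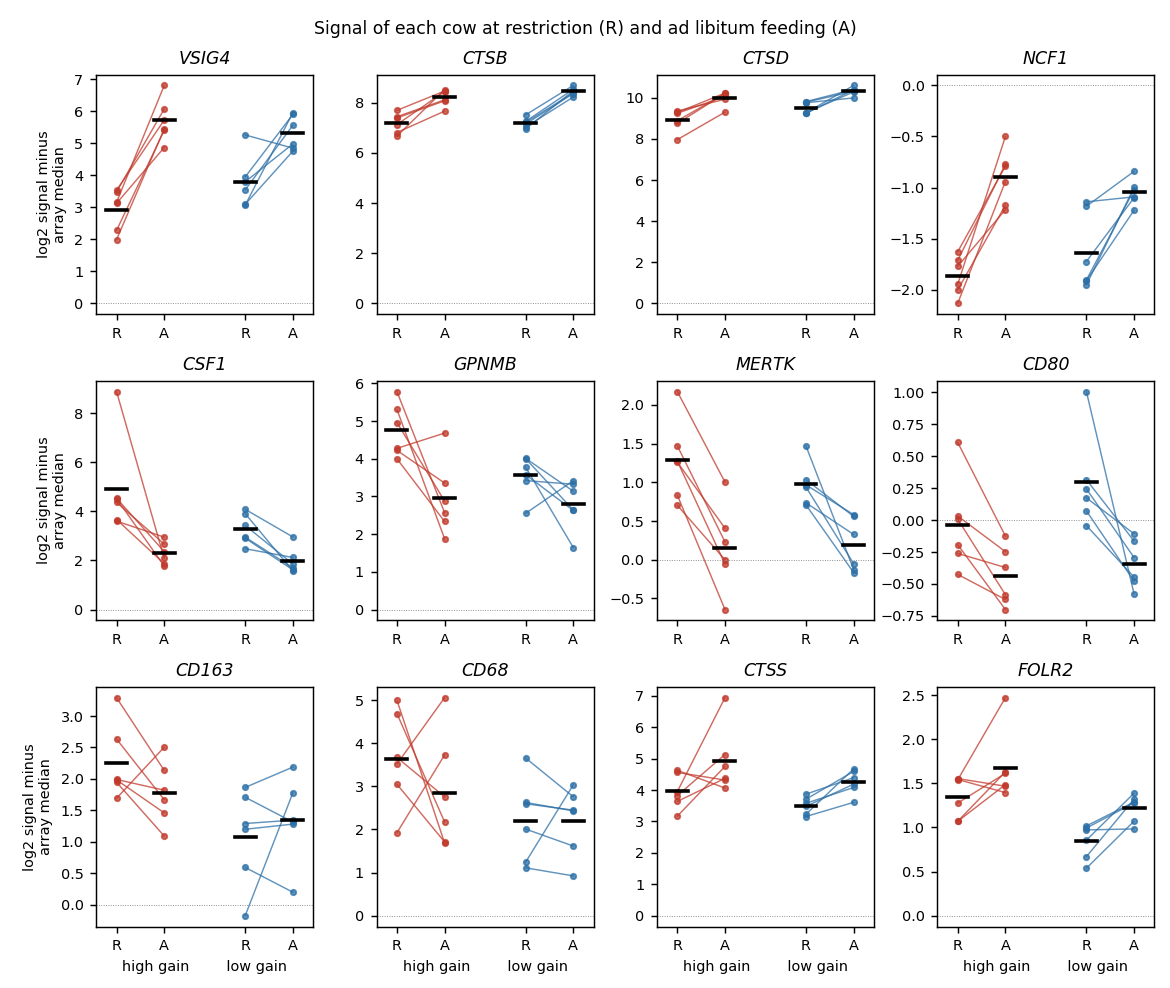
Log2 signal minus array median (vertical axis) of 12 of the genes for each cow at restriction (R) and ad libitum feeding (A), high gain cows in red and low gain cows in blue; lines join the samples of a cow and black bars are means of 6. VSIG4, CTSB, CTSD and NCF1 rise in nearly every cow, CSF1 and MERTK fall in every cow, and CD163 and CD68 go both ways.

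The lysosomal and lipid-handling genes split by gene. The cathepsin proteases CTSB and CTSD, which most cell types make, were higher in 6 of 6 cows of both groups. CTSB ran from 6.67 to 7.70 (median 7.26) and from 7.67 to 8.53 (median 8.28) in high gain cows, and from 6.96 to 7.52 (median 7.18) and from 8.23 to 8.69 (median 8.44) in low gain cows, where the diets did not overlap. It rose by 1.02 (standard error 0.17, adjusted p = 0.0025) in high gain and by 1.26 (standard error 0.11, adjusted p = 2.14e-04) in low gain cows. CTSD went from 7.97 to 9.36 (median 9.07) to 9.30 to 10.23 (median 10.14) in high gain cows and from 9.25 to 9.82 (median 9.52) to a median of 10.36 and a highest value of 10.61, with no overlap, in low gain cows. It rose by 1.08 (standard error 0.14, adjusted p = 7.86e-04) in high gain and by 0.81 (standard error 0.16, adjusted p = 0.00575) in low gain cows. After quantile normalization, which also levels the brightest clusters, CTSD was at 0.31 (adjusted p = 0.161) and 0.03 (adjusted p = 0.904), and CTSB at 0.43 (adjusted p = 0.0852) and 0.58 (adjusted p = 0.00799).

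CTSS, a cathepsin found mainly in antigen-presenting cells, ran from 3.16 to 3.87 (median 3.53) and from 3.61 to 4.68 (median 4.29) in low gain cows and was higher in 6 of 6 (change 0.75, standard error 0.15, adjusted p = 0.00567). The call was lost without centring (0.30, adjusted p = 0.0967). Values of high gain cows ran from 3.17 to 4.63 (median 3.89) and from 4.07 to 6.94 (median 4.57), with CTSS higher in 4 of 6. The change of 0.97 (standard error 0.41, adjusted p = 0.0959) was 0.56 (adjusted p = 0.22) without H5 and 1.28 (adjusted p = 0.0418) without H1.

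GPNMB, a glycoprotein of lipid-laden macrophages, moved the other way from the cathepsins. It ran from 4.0 to 5.78 (median 4.62) at restriction and from 1.88 to 4.68 (median 2.72) at ad libitum feeding in high gain cows, lower in 5 of 6, and the exception was H5. The change of -1.81 (standard error 0.45, adjusted p = 0.0149) was -2.25 (adjusted p = 0.00437) without H5, and did not pass an unmoderated test (adjusted p = 0.0792). Across low gain cows GPNMB ran from 2.55 to 4.01 (median 3.68) and from 1.64 to 3.42 (median 2.89), also lower in 5 of 6 (change -0.76, standard error 0.33, adjusted p = 0.105). There it passed without centring (-1.21, adjusted p = 0.0100), with quantile normalization (-0.97, adjusted p = 0.0452) and without L4 (-1.08, adjusted p = 0.0176).

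CD68, a lysosomal glycoprotein of phagocytes, varied more between cows than between diets. Across high gain cows it spanned 1.92 to 5.0 (median 3.59) and 1.69 to 5.06 (median 2.47), and in low gain cows 1.11 to 3.66 (median 2.30) and 0.92 to 3.03 (median 2.44). Its change was -0.79 (standard error 0.65, adjusted p = 0.37) in high gain and 0.00 (standard error 0.29, adjusted p = 0.992) in low gain cows. The lipid receptor TREM2 lay below the array median on every array, from -0.52 to -0.05 (median -0.46) and -0.82 to -0.30 (median -0.45) in high gain cows and from -0.72 to -0.27 (median -0.46) and -1.07 to -0.16 (median -0.49) in low gain cows, with changes of -0.13 and -0.06. The legumain gene LGMN, the cathepsin CTSL, the lysosomal membrane protein LAPTM5 and the lysozyme gene LYZ passed in neither group, though CTSL in low gain cows (-0.31, adjusted p = 0.0648) passed without L1 (-0.38, adjusted p = 0.0481). Without centring LAPTM5 was called lower in low gain cows (-0.58, adjusted p = 0.0476), and CTSL and TREM2 in both groups, as given above. LYZ had the widest standard errors of the 38 (0.77 and 0.50), and since cattle carry several near-identical lysozyme genes its cluster cannot be assigned to this gene with certainty. Of 10 genes of this role, 2 rose and 1 fell in high gain cows (median -0.02), and 3 rose and 0 fell in low gain cows (median -0.03).

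Among the inflammatory and pattern recognition genes, NCF1, the subunit that assembles the superoxide-producing oxidase of phagocytes, rose in 6 of 6 cows of both groups. Its signal was dim, at the 21.8th percentile of all clusters, and ran from -2.14 to -1.63 (median -1.86) and from -1.22 to -0.50 (median -0.87) in high gain cows, with no overlap. The low gain cows ran from -1.95 to -1.14 (median -1.82) and from -1.22 to -0.84 (median -1.06). The rise was 0.97 (standard error 0.13, adjusted p = 9.95e-04) in high gain and 0.59 (standard error 0.14, adjusted p = 0.0129) in low gain cows, the latter 0.14 (adjusted p = 0.419) without centring. CYBB, the catalytic subunit of the same oxidase, had changes of 0.04 and 0.20 and passed in neither, but was at 0.40 (adjusted p = 0.0382) in low gain cows without L6.

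LY86, the partner protein of an orphan toll-like receptor, ran from 0.33 to 1.23 (median 0.63) and from 1.20 to 1.76 (median 1.23) in high gain cows and rose in 6 of 6 (change 0.66, standard error 0.15, adjusted p = 0.0100; 0.25, adjusted p = 0.188, without centring). Among low gain cows it was scattered, from -0.09 to 3.29 (median 1.09) and from 0.64 to 2.50 (median 2.16), and the change of 0.53 did not pass (standard error 0.41, adjusted p = 0.346). CD80, which costimulates T cells, was lower in 6 of 6 cows of both groups. It ran from -0.42 to 0.61 (median -0.09) and from -0.70 to -0.12 (median -0.48) in high gain cows, and from -0.04 to 1.01 (median 0.21) and from -0.58 to -0.11 (median -0.37) in low gain cows, where the diets did not overlap. It fell by 0.40 (standard error 0.12, adjusted p = 0.0278) in high gain and by 0.64 (standard error 0.17, adjusted p = 0.0209) in low gain cows. In high gain cows CD80 lost its call without H2, H4, H5 or H6 (adjusted p from 0.0526 to 0.0763). CD86, its close relative in function, had changes of 0.22 in both groups and passed in neither.

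The endotoxin receptor genes were not called after centring. CD14, the co-receptor for lipopolysaccharide, ran from 1.69 to 2.94 (median 2.67) and from 1.60 to 2.84 (median 1.79) in high gain cows (change -0.50, standard error 0.24, adjusted p = 0.129; -0.72, adjusted p = 0.0362, without H6), and from 1.00 to 2.21 (median 1.77) and from 1.18 to 2.07 (median 1.65) in low gain cows (change 0.01, standard error 0.18, adjusted p = 0.984). TLR4, which signals with CD14, ran from 2.17 to 3.23 (median 2.54) and from 2.28 to 3.25 (median 2.71) in high gain cows and from 1.16 to 2.94 (median 1.72) and from 2.00 to 2.60 (median 2.36) in low gain cows. Its changes were 0.03 and 0.44. LY96, the protein that binds the endotoxin for TLR4, ran from 2.84 to 3.75 (median 3.22) and from 2.77 to 3.55 (median 3.10), and from 2.50 to 3.35 (median 2.95) and from 2.63 to 3.08 (median 2.78), with changes of -0.15 and -0.09. TLR2 and the complement peptide receptor C5AR1 had changes from -0.38 to 0.31 and were not called. Of 10 genes of this role, 2 rose and 1 fell in high gain cows (median 0.03) and 1 rose and 1 fell in low gain cows (median 0.16). Without centring CD14 was called lower in high gain cows and LY96 and C5AR1 in both groups, as given above. TLR2 was then called lower in low gain cows (-0.34, adjusted p = 0.0263).

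None of the 4 Fc receptor genes was called after centring (0 of 4 in either group of cows). At an unadjusted p under 0.05 there was 1 in high gain and 0 in low gain cows, against 46.3% and 43.6% of all clusters. The shared signal adaptors TYROBP and FCER1G had changes from -0.24 to 0.16. The inhibitory receptor FCGR2B was at 0.41 (standard error 0.17, adjusted p = 0.0893) in high gain and -0.15 in low gain cows, and the activating receptor FCGR3A was at 0.37 and 0.18. In high gain cows H5 had the highest change of FCGR2B (1.00) and of FCGR3A (1.09). Without centring 0 of the 4 were called in high gain cows. In low gain cows TYROBP (-0.58, adjusted p = 0.0327) and FCGR2B (-0.61, adjusted p = 0.0419) were then called lower, as were 13564 of all clusters.

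CSF1, the growth factor on which macrophages depend and which adipocytes and stromal cells make, fell in every cow. Among high gain cows it ran from 3.60 to 8.88 (median 4.44) at restriction and from 1.77 to 2.95 (median 2.22) at ad libitum feeding, with no overlap. The top value belonged to H2, and the change of -2.64 (standard error 0.67, adjusted p = 0.0151) was -1.81 (adjusted p = 0.00206) without that cow. In low gain cows it ran from 2.48 to 4.08 (median 3.19) and from 1.57 to 2.96 (median 1.78), a change of -1.32 (standard error 0.22, adjusted p = 0.0024). Both changes kept their call on the deposited scale and with quantile normalization, but the high gain change did not pass an unmoderated test (adjusted p = 0.082) and the low gain change did not pass with all 24 arrays in 1 fit (adjusted p = 0.0659).

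CSF1R, the receptor of CSF1, ran from 1.44 to 3.08 (median 2.18) and from 0.51 to 3.39 (median 1.39) in high gain cows, and from 0.42 to 1.95 (median 1.40) and from 0.97 to 2.03 (median 1.37) in low gain cows. It was lower in 4 of 6 high gain cows. Its change was -0.38 (standard error 0.29, adjusted p = 0.338) in high gain and -0.01 (standard error 0.15, adjusted p = 0.977) in low gain cows, and it was called lower in both without centring, as given above. AIF1, a calcium-binding protein of macrophages, ran in low gain cows from 0.21 to 1.21 (median 0.73) and from 0.90 to 1.59 (median 1.39), a change of 0.58 (standard error 0.16, adjusted p = 0.0217) that was 0.13 (adjusted p = 0.487) without centring. Its high gain values ran from 0.61 to 1.68 (median 0.90) and from 0.35 to 2.32 (median 1.27), a change of 0.23 (adjusted p = 0.343). CSF2RA, a receptor chain for another myeloid growth factor, ran in low gain cows from -0.73 to -0.10 (median -0.39) and from -1.33 to -0.46 (median -0.81), lower in 6 of 6 cows (change -0.46, standard error 0.13, adjusted p = 0.0241). In high gain cows CSF2RA ran from -1.01 to -0.24 (median -0.52) and from -1.36 to -0.32 (median -0.87), lower in 4 of 6 (change -0.28, adjusted p = 0.401; -0.69, adjusted p = 0.0381, without centring). AIF1 lost its call without L1, L2 or L3 and CSF2RA without L1, L2, L3 or L6 (adjusted p from 0.0528 to 0.0695). The myeloid transcription factor gene SPI1 (-0.35 and 0.06) and the pan-leukocyte gene PTPRC (0.60 and 0.13) were not called. The highest PTPRC change in high gain cows was 2.03, in H5. Of the 6 lineage genes, 0 rose and 1 fell in high gain cows (median -0.31), and 1 rose and 2 fell in low gain cows (median 0.03).

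Related genes outside the 38 were taken from lists also drawn up by function, and how often they were called was not tested against the 38. Of 24 other lysosomal genes, 13 rose and 2 fell in high gain cows and 13 rose and 1 fell in low gain cows, with medians of 0.54 and 0.61. With quantile normalization the counts were 9 and 2 and then 8 and 3, with medians of 0.25 in both. Without centring 3 were higher and 7 lower in high gain cows and 7 and 7 in low gain cows. The cholesterol carrier NPC2 (1.88 and 1.40), the lysosomal membrane protein LAMP2 (1.70 and 1.49) and the protease CTSC (1.77 and 1.22) rose in both groups of cows (adjusted p at most 0.00265), and did so on all 3 scales. Of 14 lipid-handling genes that macrophages share with adipocytes, 6 rose and 0 fell in high gain cows and 7 rose and 1 fell in low gain cows (medians 0.17 and 0.55). These counts were 3 and 4, then 4 and 3, without centring and 4 and 1, then 5 and 1, with quantile normalization, and 6 of the 14 were among the brightest 5% of clusters. Among them the apolipoprotein APOE rose by 2.42 in both groups (adjusted p = 5.38e-04 and 0.0028) and the lipase LPL by 1.77 and 1.51, on all 3 scales. The fatty acid transporter CD36 rose by 0.45 and 0.48 (adjusted p = 0.00642 and 0.00669), but was at 0.04 and 0.03 without centring and 0.01 and 0.03 with quantile normalization.

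Of 22 other surface, lineage and complement genes of macrophages, 8 rose and 2 fell in high gain cows and 7 rose and 2 fell in low gain cows, with medians of 0.03 and -0.02. Without centring most of those called were lower, 3 higher and 9 lower in high gain cows and 3 and 13 in low gain cows. IL34, the other ligand of CSF1R, fell by 0.82 in both groups (adjusted p = 0.00406 and 8.99e-04) and on all 3 scales, so that both ligands of CSF1R were called lower in both groups of cows. SIRPA, the receptor that restrains phagocytosis, rose by 1.89 and 1.16 (adjusted p = 4.85e-05 and 6.71e-04), again on all 3 scales, and the myeloid transcription factor gene IRF8 rose by 0.96 and 0.74 (adjusted p = 6.98e-04 and 0.00657), the latter at 0.29 (adjusted p = 0.112) without centring.

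Of 20 other genes of the oxidase and of toll-like receptor signaling, 3 rose and 4 fell in high gain cows and 1 rose and 2 fell in low gain cows, with medians of -0.21 and -0.12, and without centring 1 was higher and 13 lower, then 1 and 14. TLR8, an endosomal receptor for single-stranded RNA, rose by 3.94 (adjusted p = 6.48e-04) and 2.52 (adjusted p = 7.69e-04), a larger change than that of any of the 38 genes, while RELA, a subunit of the transcription factor downstream of these receptors, fell by 1.31 and 0.74 (adjusted p = 3.36e-04 and 0.00209). Both held on all 3 scales. Of 13 cytokine and chemokine genes, 3 rose and 1 fell in high gain cows and 5 rose and 2 fell in low gain cows, with medians of -0.12 and -0.02 (1 and 5, then 2 and 7, without centring). The inflammatory cytokine TNF rose by 0.88 and 0.81 (adjusted p = 5.13e-04 and 0.00138) on all 3 scales, the restraining cytokine IL10 by 0.49 and 0.54 (adjusted p = 0.03 and 0.00789; 0.08 and 0.09 without centring), and IL1A fell by 0.39 and 0.43 (adjusted p = 0.0357 and 0.0165).

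Markers of other cells of the tissue were called with diet as well, and the counts depended on the scale. Of 13 adipocyte markers, 9 rose and 2 fell in high gain cows and 10 rose and 1 fell in low gain cows. With quantile normalization they were 5 and 4, then 5 and 3, and 10 of the 13 were among the brightest 5% of clusters. Of 11 fibroblast markers 8 and 7 rose and 0 fell, against 5 and 5 with quantile normalization, and 7 of the 11 were among the brightest. Of 12 endothelial markers, 0 rose and 4 fell in high gain cows, while 5 rose and 1 fell in low gain cows. The latter were 2 and 2 with quantile normalization and 2 and 3 without centring. Of 12 T and natural killer cell markers, 1 rose and 1 fell in high gain and 0 rose and 5 fell in low gain cows, and of 8 B and plasma cell markers 0 rose and 1 and 3 fell. Without centring 6 and 10 of the T and natural killer cell markers and 6 and 7 of the B and plasma cell markers were lower, and 0 were higher. Of the neutrophil markers 1 rose in high gain and 1 fell in low gain cows (of 9), of the mast cell markers 1 and 0 fell (of 6), and of the dendritic cell markers 2 and 1 fell (of 8). Of the erythrocyte markers 1 rose and 1 fell in high gain and 0 were called in low gain cows (of 5), and 0 of 8 muscle markers were called in either. The part of these cells in the changes of the macrophage genes was not tested.

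The comparison of high with low gain cows asked whether the tissue differed between them in the same feeding period. At ad libitum feeding the high gain cows also ate more. At restriction the macrophage genes lay mostly higher in the high gain cows, but none passed the adjusted threshold. The median difference of the 38 genes was 0.37, and 25 of 38 were positive, against 49.3% of all clusters. In limma, 0 of 38 genes and 0% of all clusters had an adjusted p under 0.05 (smallest over all clusters 0.0651). At an unadjusted p under 0.05, 12 genes lay higher in the high gain cows and 2 lay lower, against 4.92% and 4.3% of all clusters. The 12 were CSF1 (1.64), CD68 (1.43), GPNMB (1.20), CD163 (1.18), CD14 (0.86), TLR4 (0.76), CSF1R (0.76), MSR1 (0.59), SPI1 (0.52), FOLR2 (0.50), STAB1 (0.40) and CD86 (0.39), with adjusted p from 0.428 to 0.534. The 2 lower ones were VSIG4 (-0.86, adjusted p = 0.508) and CTSD (-0.61, adjusted p = 0.453). Without L1 7 genes were higher at that unadjusted level. Since the 38 genes share cells and arrays, these counts are not independent. The list was also chosen with earlier results of these data known. In the other macrophage lists the positive differences at restriction were 12 of 22 surface, lineage and complement genes (median 0.09), 11 of 24 lysosomal genes (median -0.02), 9 of 20 oxidase and toll-like receptor genes (median -0.02), 7 of 13 cytokine and chemokine genes (median 0.01) and 10 of 14 lipid-handling genes (median 0.25).

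Read by cow, FOLR2 and STAB1 did not overlap at restriction: all 6 high gain cows lay above all 6 low gain cows, which held for 0.256% of all clusters. FOLR2 was from 1.07 upwards in high gain and up to 1.02 in low gain cows (difference 0.50, standard error 0.13, unadjusted p = 0.0021), and STAB1 was from 0.29 upwards and up to 0.29 (0.40, standard error 0.11, unadjusted p = 0.00298), so that the 2 groups nearly touched. For CD163, 5 of 6 high gain cows lay above every low gain cow (difference 1.18, standard error 0.35, unadjusted p = 0.00464). The same held for GPNMB (1.20, standard error 0.32, unadjusted p = 0.00238) and CD14 (0.86, standard error 0.25, unadjusted p = 0.00366). The CSF1 difference of 1.64 (standard error 0.73) was 0.85 (unadjusted p = 0.0136) without H2. For VSIG4, 0 of 6 high gain cows lay above the median of the low gain cows.

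**Figure D4:**
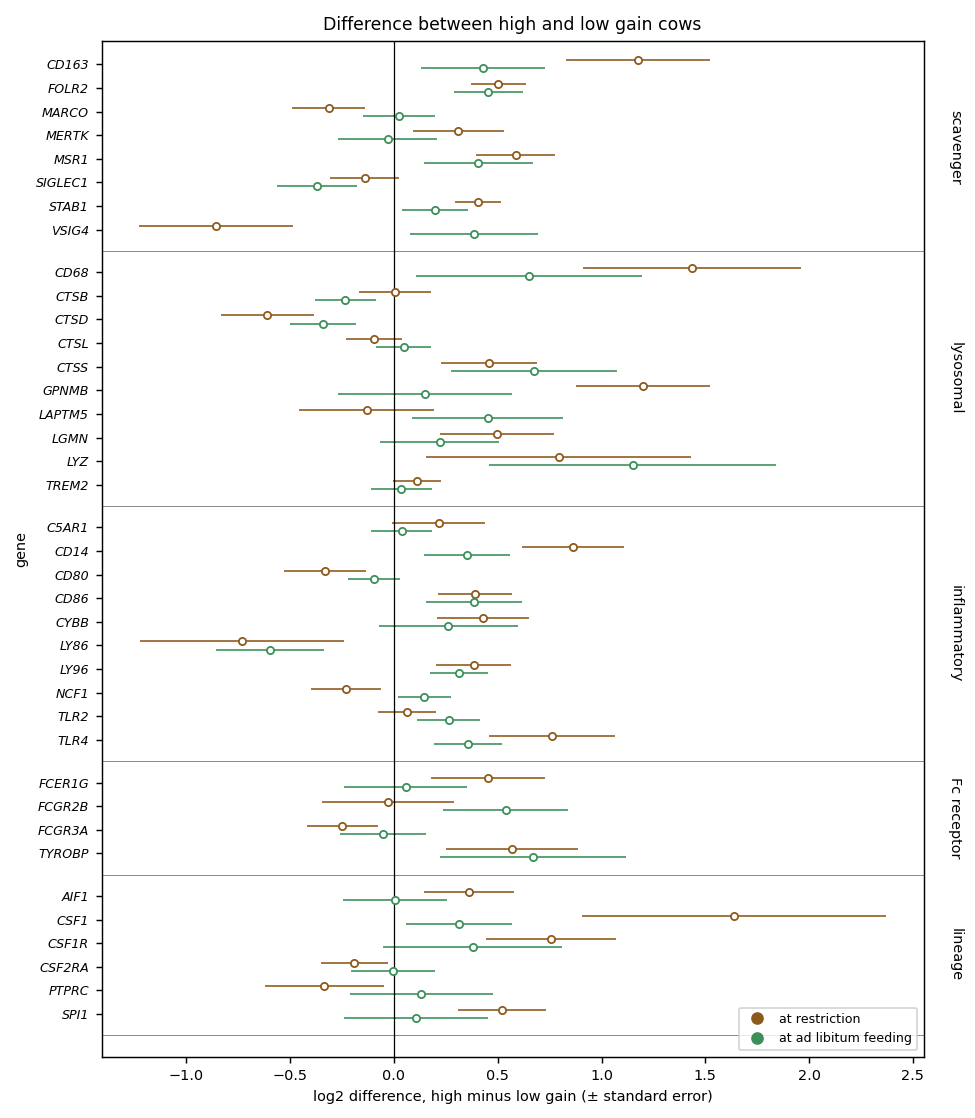
Log2 difference between high and low gain cows (horizontal axis) of each of the 38 genes by role, at restriction (brown) and ad libitum feeding (green); bars are standard errors from limma, n = 6 cows a group, and no gene had an adjusted p under 0.05. Most points lie right of 0, with CSF1, CD68, GPNMB and CD163 farthest right at restriction.

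At ad libitum feeding the median difference was 0.21, and 30 of 38 genes were positive against 47.2% of all clusters. Again 0 of 38 genes and 0% of clusters passed (smallest adjusted p over all clusters 0.17). At an unadjusted p under 0.05, FOLR2 (0.46), TLR4 (0.36) and LY96 (0.32) were higher and LY86 (-0.60) was lower in high gain cows, 3 and 1 of 38 against 2.63% and 4.62% of all clusters, with adjusted p from 0.596 to 0.686. FOLR2 again did not overlap, with all high gain cows above all low gain cows, which held for 0.128% of all clusters. High gain cows lay from 1.40 upwards and low gain cows up to 1.39. Without H5 the FOLR2 difference was 0.30 (unadjusted p = 0.0139), the median over the 38 genes was 0.09, and 1 gene was higher at an unadjusted p under 0.05. The genes farthest apart at restriction were at 0.65 (CD68), 0.43 (CD163), 0.35 (CD14), 0.31 (CSF1) and 0.15 (GPNMB), with adjusted p of 0.772 or more.

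The difference between the 2 gain groups in their response to diet was tested in all 24 arrays, and 0 of 38 genes passed, against 0.02% of all clusters (5 of 24997). At an unadjusted p under 0.05, 1 gene was positive and 0 were negative, against 3.74% and 5.53% of all clusters. That gene was VSIG4, whose rise was larger in high gain cows by 1.24 (standard error 0.47, unadjusted p = 0.0195, adjusted p = 0.456). The fall of CSF1 was larger in high gain cows by 1.32 on the log2 scale (difference -1.32, standard error 0.78, adjusted p = 0.638) and that of GPNMB by 1.05 (difference -1.05, standard error 0.62, adjusted p = 0.639), neither past the test. The CSF1 difference rests on H2 and was -0.49 (standard error 0.37, adjusted p = 0.74) without that cow. The calls that one group of cows passed and the other did not, those of LY86, GPNMB, AIF1, CTSS, FOLR2 and CSF2RA, are therefore not shown to differ between them (differences from -1.05 to 0.22, adjusted p from 0.639 to 0.963).

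With both samples of a cow averaged, so that each cow counted once, the median difference between high and low gain cows was 0.25, with 26 of 38 genes positive against 47.9% of all clusters. No gene passed (0 of 38 and 0% of clusters, smallest adjusted p over all clusters 0.301). At an unadjusted p under 0.05, 14 genes lay higher in high gain cows and 2 lay lower, against 3.63% and 3.98% of clusters. The smallest p belonged to TLR4 (difference 0.56, standard error 0.13, adjusted p = 0.467), FOLR2 (0.48, standard error 0.12, adjusted p = 0.472) and CD14 (0.61, standard error 0.16, adjusted p = 0.472). By role the medians were 0.22 for scavenger, 0.26 for lysosomal, 0.25 for inflammatory, 0.25 for Fc receptor and 0.25 for lineage genes.

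**Figure D5:**
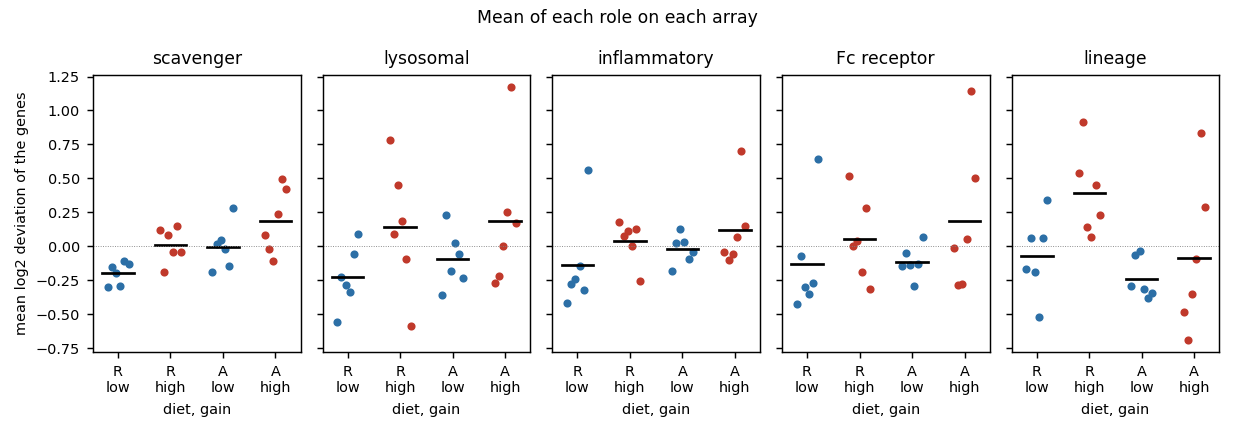
Mean log2 deviation of the genes of each role from their mean over all arrays (vertical axis), for each cow by diet (R restriction, A ad libitum feeding) and gain (low blue, high red); black bars are means of 6. High gain cows average above low gain cows in every panel, and the top point of each panel at ad libitum feeding is H5.

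No marker of another cell type passed in the gain comparisons either, and their values are given as differences only. At restriction the 11 fibroblast markers were all positive (11 of 11, median 0.55) and at ad libitum feeding 10 of 11 were (median 0.95). Adipocyte markers had medians of -0.25 and -0.21, with 3 and 1 of 13 positive, and endothelial markers of 0.36 and -0.46. T and natural killer cell markers had medians of -0.22 and 0.04, and B and plasma cell markers of -0.09 and -0.02, so at restriction the lymphocyte markers did not lie higher with the macrophage genes. Their part in the gain differences of the macrophage genes was not tested. Read per array, the mean deviation of the 38 genes ran from -0.23 to 0.42 in high gain and from -0.39 to 0.27 in low gain cows at restriction, and the highest low gain array there, that of L6, also had the highest T and natural killer cell markers of its group (0.48).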

How the data were processed

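Adipose RNA of 24 samples was hybridised to Bovine 1.1ST arrays, 1 array a sample. The deposited values are log2 signals per transcript cluster that the authors made from the scans in Affymetrix Expression Console, with normalization for GC content, a signal space transformation that stretches the range of the signal, and robust multichip analysis; software versions are not given in the sources used here. The stretching enlarges fold changes, and whether arrays of both diets were normalized together is not stated. Array images and probe background were not used here, so whether dim clusters lay above background was not tested. The number of cows, 6 a group, limits the precision.

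Groups came from the titles of the samples, in which the number of the sampling (1 or 2) was read as restriction and ad libitum feeding. Clusters whose identifiers precede every annotated one, none of which carries a gene symbol, were left out. Each array was centred on its median. Clusters were named through the platform annotation of the arrays, which can be old; of the 38 genes, 37 matched a current RefSeq gene by identifier, all with the same symbol. Coordinates and sequences are not given, as the build of the annotation was not named. Comparisons were fitted over all 24997 clusters with limma 3.58.1 in R 4.3.3, two-sided, with Benjamini-Hochberg adjustment over all of them, and the cow as a block for diet and for the difference in response. The pairs come from the animal number in both titles; deviations of the 2 arrays of a cow from their group means correlated with a median of 0.19 in high gain and 0.10 in low gain cows. The fits were tested on simulated data. Alternatives were no block, the deposited scale, quantile normalization, dim clusters left out, other priors, array weights, all arrays in 1 fit, the thresholds of the methods, the mean of a gene's clusters, and each cow left out.

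The 38 genes, the other lists and their roles were chosen with earlier results of these data known. Every measured gene is named; all 4 groups are given for CD163, CD68, CD14, CSF1R, TREM2, GPNMB, CTSS and the 3 genes with the smallest p in each comparison, as well as for CD80, AIF1 and CSF2RA, added because they were called. Of each other list, up to 3 genes with the smallest mean p over the diet comparisons are named.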

Additional observations from a re-analysis of the deposited data

Results flagged for a closer look

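Among the genes whose group values are given above, 72 groups of 6 cows were examined for a cow far from the other 5. CD80, AIF1 and CSF2RA were not examined in this way. Of the 72 groups 5 held such a cow, where chance gives about 1 in 20. In high gain cows at ad libitum feeding H5 was far above the others for CTSS (6.94, the others from 4.07 to 5.13) and FOLR2 (2.47, the others from 1.40 to 1.63), and far below them for CTSD (9.30, the others from 9.93 to 10.2). In high gain cows at restriction H2 was far above the others for CSF1 (8.88, the others from 3.60 to 4.53). In low gain cows at ad libitum feeding L5 was far below the others for LY86 (0.643, the others from 1.82 to 2.50). Of these 5 values, 3 come from the array of H5 that stands apart in most of the macrophage genes.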

How the results depend on the processing

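On the deposited scale, diet gave 4 genes higher and 13 lower in high gain cows and 2 and 16 in low gain cows (median -0.37 in low gain cows), and FOLR2 in low gain cows turned to -0.070. With quantile normalization 3 were higher in high gain cows, and with an unmoderated test 2 were lower. The thresholds of the methods (unadjusted p under 0.05 and a fold over 2) were applied to the centred values in an unmoderated one-way test. By them 3 were higher in high gain cows, and 2 were higher and 1 lower in low gain cows. The number lower in high gain cows is not given here, where CSF1 (-2.64), GPNMB (-1.81) and MERTK (-1.13) changed by more than that fold. Higher in high than low gain cows were 3 at restriction, 1 on the cow averages and 1 in the difference of response. Without the cow as a block, the paired design ignored, 5 and 3 genes were called in high gain cows and 7 and 4 in low gain cows, and CD80 in high gain cows lost its call (adjusted p = 0.0795).

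At an unadjusted p under 0.05, the number lower in high gain cows at restriction was 1 with an unmoderated test or array weights. At ad libitum feeding 1 gene was higher with a trended and robust prior, array weights or all arrays in 1 fit, and 0 were lower with an unmoderated test, array weights or all arrays in 1 fit. On the cow averages 1 was lower on the deposited scale, with quantile normalization, an unmoderated test or array weights.

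With each cow left out in turn, diet gave 5 to 6 genes higher and 3 to 5 lower in high gain cows (median -0.16 to 0.17), and 5 to 7 and 3 to 5 in low gain cows (median 0.02 to 0.11). At an unadjusted p under 0.05, high against low gain gave 7 to 16 higher and 1 to 3 lower at restriction, 1 to 4 and 0 to 1 at ad libitum feeding, 11 to 15 and 1 to 3 on the cow averages, and 1 to 2 and 0 to 4 for the difference of response. At ad libitum feeding 1 gene was higher without any one of L1, L4, L5, H3, H5 or H6. No gene reached an adjusted p under 0.05 in a gain comparison in any of these fits (0 genes). The causes of these shifts were not tested. The mean of a gene's clusters gave the same values, since each gene had 1 cluster.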
